A study of Mus musculus with 9 samples.

Results

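The regulators described here are 10 genes of mouse pancreatic islets that act close to the tumor necrosis factor (TNF) receptor and the NF-kB pathway. They were taken by gene symbol from a table of 56748 genes, and all 10 were present: Tnfaip3, Tnip1, Cyld, Birc2, Birc3, Traf1, Traf2, Traf3, Map3k14 and Tnfaip2. All 10 also passed the filter on low counts, as did 17276 genes of the table. Traf1 passed it through the cytokine-treated libraries, since its counts in untreated islets were 2, 6 and 5. Total RNA was sequenced in 9 libraries of primary islets from wild-type mice of the strain C57bl/6, in 3 groups of 3. Particle islets were exposed to a cocktail of interleukin-1 beta, TNF alpha and interleukin-6 and received PD-G-MSNPs, nanoparticles of mesoporous silica with a coat of polydopamine designed to deliver a nutrient. Inflamed islets were exposed to the same cocktail without particles, for 48 hours in either case. Control islets received no treatment. Cytokine doses, the age and sex of the mice and whether the replicates came from separate mice or islet batches are not given in the sources used here. No group with particles alone was analysed here, so particle values are always values under cytokines.

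TNF and interleukin-1 receptors signal through ubiquitin chains. TRAF proteins and the cellular inhibitors of apoptosis (cIAPs) build these chains on receptor-bound complexes, the chains recruit the kinases that release NF-kB, and NF-kB in turn switches on genes whose products cut or occupy the chains and end the signal. A20, encoded by Tnfaip3, is the best known of these feedback proteins and in islets it is known to restrain NF-kB activation and cytokine-induced beta cell death. TRAF2, TRAF3 and the cIAPs also hold NF-kB-inducing kinase (NIK) at a low level in resting cells, which keeps the non-canonical NF-kB pathway off.

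The libraries held 17832949 to 55865759 counts, the deepest being inflamed replicate 3. Insulin transcripts, which mark the beta cells of islets, took 8.55 to 21.6% of counts in particle, 13.01 to 21.2% in inflamed and 28.5 to 29.2% in control libraries. Of 10 beta cell markers edgeR called 9 lower in inflamed than in control islets and 3 lower in particle than in control islets. The shares of all tested genes called lower were 19.0% and 5.92%. In particle against inflamed islets edgeR called 0 of them, and their median log2 fold change was 1.58. At an unadjusted p under 0.05, 6 were higher, against 9.58% of all tested genes. DESeq2 called 5 higher, where it called 487 of all 17276 tested genes higher. With limma-voom and limma on FPKM 0 were called, and Ins2 was lower (edgeR log2 fold change -0.38). Particle libraries were uneven, as for Mafa at 463 ± 693 CPM (SD, n = 3), against 54.4 ± 14.55 CPM in inflamed islets. The summed beta markers overlapped, with 87560, 240200 and 149100 CPM in particle replicates 1 to 3. Inflamed replicates 1 to 3 had 200600, 123600 and 229000 CPM. Particle replicate 2 stood apart from the other particle libraries, with the 21.6% of insulin counts and with the lowest value of all 10 genes within its group. Its summed markers were 7973 CPM for alpha cells, against 480 and 133 CPM in particle replicates 1 and 3, 3543 CPM for delta, PP and epsilon cells, against 119.5 and 137 CPM, and 3185 CPM for acinar cells, against 5.96 and 225 CPM. Inflamed replicate 3 held 2643 CPM of acinar markers, against 27.7 and 34.4 CPM in inflamed replicates 1 and 2. Whole islets were sequenced, so fewer cells of a type and less RNA per cell cannot be told apart. Levels are given in CPM, the count of a gene scaled by the size of its library. The summed level of 13 macrophage markers was 355 to 542 CPM in particle, 1076 to 1188 CPM in inflamed and 323 to 403 CPM in control libraries. None of these 13 markers was at 0 in all libraries. Of the 12 tested, 11 were higher in inflamed than in control islets, against 20.7% of all tested genes. In particle against control islets Cd68, Fcer1g and Itgam were higher, C1qa was lower and the other 8 were not called. The shares of all tested genes called higher and lower there were 11.4% and 5.92%. The sum thus does not stand for each macrophage marker. Of 12 markers of lymphocytes and neutrophils, Cd3e, Ms4a1 and Nkg7 had no count in any library, and the sum of the list was 6.47 to 14.5 CPM in particle, 9.12 to 14.2 CPM in inflamed and 8.42 to 35.1 CPM in control libraries. Within that list the neutrophil marker S100a9 averaged 1.80 ± 2.48 CPM in particle, 5.42 ± 2.65 CPM in inflamed and 0.0307 ± 0.0531 CPM in control islets (SD, n = 3) and was called higher in both treated groups (edgeR, adjusted p = 0.0174 for particle and 0.00213 for inflamed islets against control). Like Traf1, S100a9 passed the filter on low counts through the cytokine-treated libraries, where it was high. Of 5 genes tested in that list, 1 was higher and 1 lower in inflamed against control islets (20.7% and 19.0% of all tested genes). In particle against control islets 1 was higher and 0 were lower (11.4% and 5.92%). The neutrophil markers S100a8 and Csf3r were not called in inflamed against control islets (edgeR, adjusted p = 0.0648 and 0.226). Nor were they in particle against control islets (adjusted p = 0.331 and 0.54). Ly6g was not tested. The B cell marker Cd79a, at 5.22 ± 1.93, 2.76 ± 2.66 and 16.7 ± 15.25 CPM in particle, inflamed and control islets, made up most of the control sum and was called lower in inflamed islets (adjusted p = 0.0206).

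Cytokines raised 7 of the 10 regulators and lowered 0. Those higher in inflamed than in control islets were Tnfaip3, Tnip1, Tnfaip2, Birc3, Traf1, Traf2 and Map3k14, at an adjusted p under 0.05 in edgeR's quasi-likelihood test. Among all tested genes 20.7% were higher and 19.0% lower in that comparison. The median log2 fold change was 2.77 over the 10 regulators and 0.05 over all tested genes. For 6 of the 7, all except Map3k14, every inflamed library lay above every control library, as was the case for 28.3% of all tested genes. In particle islets 6 of the 10 were higher than in control islets and 0 were lower, against 11.4% and 5.92% of all tested genes. The 6 were those just named without Map3k14, and each again had every particle library above every control library, against 22.9% of all tested genes. Both comparisons use the same control libraries. Birc2, Traf3 and Cyld were not called in either.

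**Figure D1:**
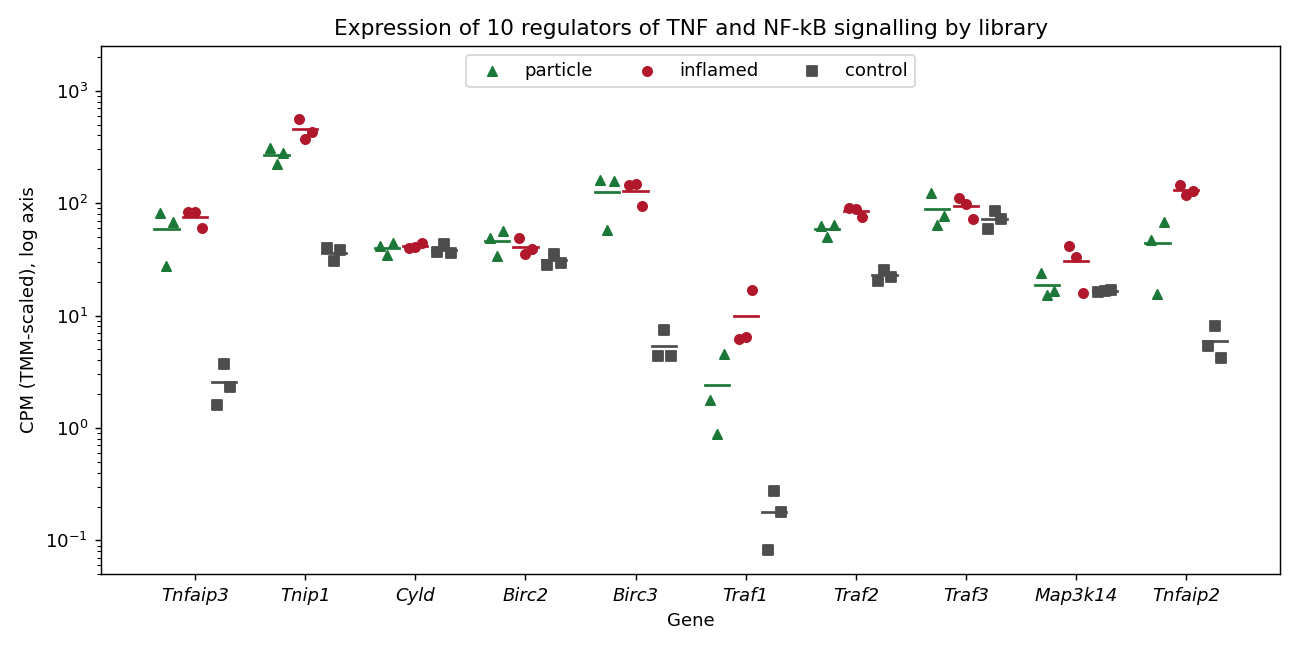
CPM (TMM-scaled, log axis) of each of the 10 genes in the 3 particle (triangles), 3 inflamed (circles) and 3 control (squares) libraries, with the group mean as a line. Tnfaip3, Tnip1, Birc3, Traf1, Traf2 and Tnfaip2 have all particle and inflamed libraries above all control libraries, while the groups of Cyld, Birc2, Traf3 and Map3k14 overlap.

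Transcripts of the deubiquitinase A20 and its partner ABIN1 rose strongly with cytokines, and that of the deubiquitinase CYLD was not called. The values here are of RNA, not of protein. Tnfaip3, which encodes A20 (ENSMUSG00000019850, chromosome 10 from 18876658 to 18891405, GRCm39, minus strand), had 81.9, 27.5 and 68.35 CPM in particle libraries 1 to 3. It had 83.3, 82.6 and 60.2 CPM in inflamed libraries and 1.61, 3.725 and 2.33 CPM in control libraries. Inflamed and particle islets thus overlapped, with particle replicate 2 alone below all inflamed libraries, and both lay far above controls. The level of Tnfaip3 was 29.5-fold that of control islets in inflamed islets (log2 fold change 4.885, SE 0.45, adjusted p = 3.05e-05) and 23.2-fold in particle islets (log2 fold change 4.54, SE 0.44, adjusted p = 5.87e-05). Between particle and inflamed islets the log2 difference was -0.35, with a 95% interval of -1.17 to 0.48 (adjusted p = 0.719).

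Tnip1 encodes ABIN1, a ubiquitin-binding protein that brings A20 to its targets (ENSMUSG00000020400, chromosome 11 from 54801611 to 54853743, GRCm39, minus strand). It had 309.6, 222 and 277 CPM in particle, 555, 374 and 431 CPM in inflamed and 39.5, 30.7 and 38.2 CPM in control libraries. The 3 groups did not overlap, with the particle libraries between the inflamed and the control libraries. Its level was 12.5-fold that of controls in inflamed islets (log2 fold change 3.65, SE 0.25, adjusted p = 3.73e-06) and 7.46-fold in particle islets (log2 fold change 2.90, SE 0.24, adjusted p = 1.58e-05). Tnip1 of particle libraries stood at 49.0 to 68.3% of the inflamed mean, a log2 fold change of -0.75 (95% interval -1.24 to -0.26) that was not called (adjusted p = 0.174), while DESeq2 called it (adjusted p = 0.0231).

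Cyld encodes a deubiquitinase that removes lysine-63-linked and linear chains (ENSMUSG00000036712, chromosome 8 from 89423656 to 89478573, GRCm39, plus strand). Its values were 41.5, 34.4 and 44.2 CPM in particle, 40.2, 41.0 and 43.9 CPM in inflamed and 36.75, 42.9 and 35.7 CPM in control libraries, and all 3 groups overlapped. The log2 fold change was 0.12 in inflamed against control islets with an interval of -0.26 to 0.50 (adjusted p = 0.617), and 0.06 in particle against control islets with an interval of -0.32 to 0.44 (adjusted p = 0.846). A p that misses the threshold does not show equal levels.

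The stretches upstream of the transcription start are shown because several of these genes rose together and NF-kB binds a 10-base motif, the kappa B site. The sequences are from RefSeq (GRCm38.p6, an earlier build than the GRCm39 of the coordinates above), cover the 160 bases before an annotated start, run 5′ to 3′ on the strand of the gene, and carry matches to the kappa B consensus in capitals. The consensus was searched on both strands of windows from 250 bases before to 50 bases after each start. Where matches overlap, the capitals run on.
Tnfaip3, chr10:19015411-19015570, minus strand: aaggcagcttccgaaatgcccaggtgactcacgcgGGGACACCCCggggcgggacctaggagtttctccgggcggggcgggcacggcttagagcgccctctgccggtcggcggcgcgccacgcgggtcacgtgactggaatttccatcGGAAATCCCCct
Tnip1, chr11:54962941-54963100, minus strand: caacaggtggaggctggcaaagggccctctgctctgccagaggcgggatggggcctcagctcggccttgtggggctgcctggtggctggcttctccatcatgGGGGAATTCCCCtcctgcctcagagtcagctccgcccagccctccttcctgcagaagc
Tnfaip2, chr12:111442501-111442660, plus strand: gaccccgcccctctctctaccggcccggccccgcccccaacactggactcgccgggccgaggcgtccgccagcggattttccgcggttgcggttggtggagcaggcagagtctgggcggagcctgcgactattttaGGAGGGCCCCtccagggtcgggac
Traf3, chr12:111166210-111166369, plus strand: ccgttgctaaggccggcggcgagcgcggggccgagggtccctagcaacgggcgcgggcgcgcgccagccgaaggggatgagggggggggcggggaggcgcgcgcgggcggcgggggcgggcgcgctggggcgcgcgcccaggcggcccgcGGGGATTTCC
Cyld, chr8:88696868-88697027, plus strand: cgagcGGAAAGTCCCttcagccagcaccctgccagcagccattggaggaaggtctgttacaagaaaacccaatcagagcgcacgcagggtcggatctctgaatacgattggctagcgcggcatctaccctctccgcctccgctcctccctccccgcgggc
Birc3, chr9:7873171-7873330, minus strand: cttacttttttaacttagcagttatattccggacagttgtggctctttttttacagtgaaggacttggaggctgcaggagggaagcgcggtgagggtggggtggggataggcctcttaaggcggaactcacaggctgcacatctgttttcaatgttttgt

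A match was present in 5 of 12 windows of the 10 genes, belonging to Tnfaip3, Tnip1, Tnfaip2, Traf3 and Cyld, and in 8.46% of 32851 windows of all genes. By gene, 5 of 10 regulators and 9.55% of 27025 genes had a match. Counted from the start, the first match began at -125 in Tnfaip3, which held 2, and at -58 in Tnip1, which held 3 that overlap. The 1 match of each other gene began at -24 in Tnfaip2, at -10 in Traf3 and at -155 in Cyld. Traf3 and Cyld, which were not called, thus had a match, and Birc3, Traf1, Traf2 and Map3k14, which rose, had none of these letters in their windows. A match is a description of letters, and enhancers outside the windows were not searched.

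The cIAP genes lie next to each other, and with cytokines Birc3 rose while Birc2 was not called. Birc3, which encodes cIAP2 (ENSMUSG00000032000, chromosome 9 from 7848700 to 7873187, GRCm39, minus strand), had 161, 57.9 and 158 CPM in particle, 144, 149 and 94.3 CPM in inflamed and 4.34, 7.50 and 4.38 CPM in control libraries. Particle replicate 2 was the lowest treated library, yet it lay above all controls. Birc3 rose 23.9-fold in inflamed islets (log2 fold change 4.58, SE 0.43, adjusted p = 3.49e-05) and 23.3-fold in particle islets (log2 fold change 4.54, SE 0.43, adjusted p = 4.70e-05), both against control. Particle and inflamed islets differed by -0.04 on the log2 scale with an interval of -0.85 to 0.77 (adjusted p = 0.978), and the sign of that difference was turned by 4 of 20 alternatives.

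Birc2, which encodes cIAP1, the ligase that is abundant in resting cells (ENSMUSG00000057367, chromosome 9 from 7818228 to 7837065, GRCm39, minus strand), had 49.1, 33.5 and 56.2 CPM in particle, 48.9, 35.3 and 39.1 CPM in inflamed and 27.9, 35.5 and 29.5 CPM in control libraries. In both treated groups 2 of the 3 libraries lay above all controls and the groups overlapped. The log2 fold change was 0.41 in inflamed against control islets (95% interval -0.09 to 0.91, adjusted p = 0.172) and 0.58 in particle against control islets (95% interval 0.08 to 1.08, adjusted p = 0.101). Birc2 was called higher in particle than in control islets without particle replicate 2 (log2 fold change 0.72, adjusted p = 0.0289) and with library totals in place of TMM factors (log2 fold change 0.87, adjusted p = 0.0337).

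Because a ratio within a library does not depend on scaling, the counts of the paralogs were also divided by each other. There were 3.28, 1.73 and 2.81 Birc3 counts per Birc2 count in particle libraries, 2.95, 4.22 and 2.41 in inflamed libraries and 0.156, 0.211 and 0.148 in control libraries. By count, Birc3 was the greater of the pair in every treated library and the lesser in every control library. The mean log2 ratio differed from control by 4.20 in inflamed and by 3.89 in particle islets, each with an exact two-sided permutation p of 0.1, the smallest that 3 against 3 libraries allow (0.15 after Benjamini-Hochberg adjustment over 6 ratio tests). Particle and inflamed islets differed by -0.30 (exact permutation p = 0.5). Birc2 and Birc3 are similar in sequence, so how shared reads were divided between them is uncertain.

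**Figure D2:**
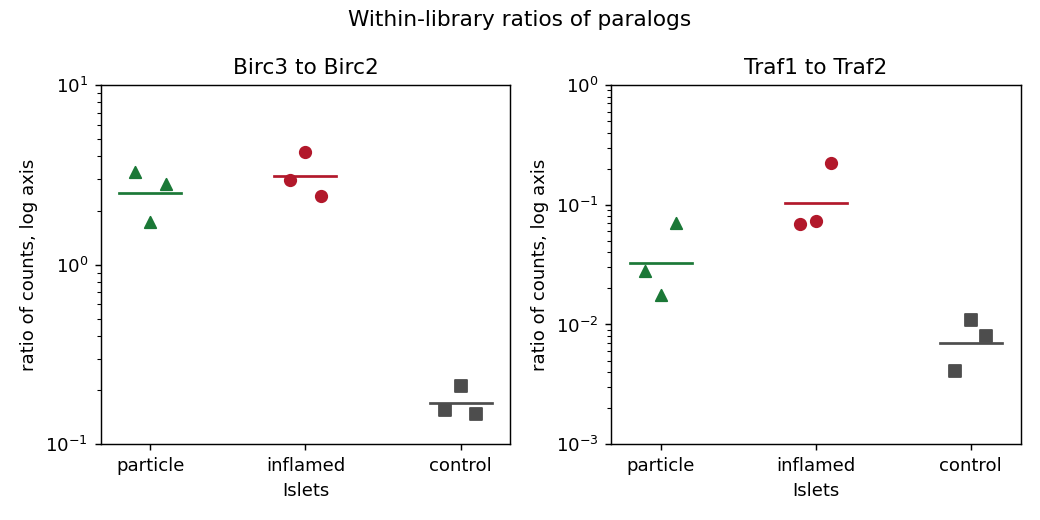
Ratio of Birc3 to Birc2 counts and of Traf1 to Traf2 counts within each library (log axes), with a line at the geometric mean of the 3 particle, 3 inflamed and 3 control libraries. Birc3 exceeds Birc2 in all particle and inflamed libraries (1.73 to 4.22) and in no control library (0.148 to 0.211).

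Of the TRAF adaptor genes, Traf1 and Traf2 rose and Traf3 was not called. Traf1 encodes an adaptor without a RING domain that joins TRAF2 and the cIAPs and is itself an NF-kB target (ENSMUSG00000026875, chromosome 2 from 34831762 to 34851784, GRCm39, minus strand). It had 1.77, 0.884 and 4.53 CPM in particle, 6.23, 6.465 and 16.8 CPM in inflamed and 0.0826, 0.276 and 0.179 CPM in control libraries. The 3 groups did not overlap, inflamed replicate 3 was far above the other inflamed libraries, and the particle libraries lay between the groups at 18.0, 8.98 and 46.1% of the inflamed mean. Control islets held 13 Traf1 counts in all 3 libraries together (exact Poisson 95% interval 6.92 to 22.2, counting error only). Traf1 rose by 5.76 on the log2 scale in inflamed (SE 0.78, adjusted p = 3.86e-04) and by 3.72 in particle islets (SE 0.745, adjusted p = 0.00806), both against control. The first value was 5.07 without inflamed replicate 3, and the second was 2.87 without particle replicate 3. The particle call was lost with limma-voom (adjusted p = 0.128) and with limma on log2(FPKM + 1) or log2(FPKM + 0.1) (adjusted p = 0.32 and 0.0672).

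Traf2, the adaptor that carries the cIAPs to the receptor (ENSMUSG00000026942, chromosome 2 from 25407994 to 25436952, GRCm39, minus strand), had 62.9, 49.99 and 64.4 CPM in particle, 90.8, 88.4 and 75.1 CPM in inflamed and 20.4, 25.6 and 22.2 CPM in control libraries. Its groups did not overlap either, and the particle libraries again lay between the other groups. Traf2 rose 3.73-fold in inflamed islets (log2 fold change 1.90, SE 0.19, adjusted p = 5.05e-05) and 2.60-fold in particle islets (log2 fold change 1.38, SE 0.19, adjusted p = 6.26e-04), both against control. There were 0.0282, 0.0177 and 0.0704 Traf1 counts per Traf2 count in particle libraries, 0.0686, 0.0731 and 0.224 in inflamed libraries and 0.00405, 0.0108 and 0.00806 in control libraries. The mean log2 ratio differed from control by 3.88 in inflamed and 2.21 in particle islets (exact permutation p = 0.1 for each), and between particle and inflamed islets by -1.67 (exact permutation p = 0.2, adjusted 0.24).

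Traf3, whose product ties NIK to the cIAPs for degradation and also serves interferon induction (ENSMUSG00000021277, chromosome 12 from 111132804 to 111233587, GRCm39, plus strand), had 124, 63.5 and 77.2 CPM in particle, 111, 99.1 and 72.0 CPM in inflamed and 58.8, 85.2 and 72.55 CPM in control libraries. Values of the 3 groups were mixed. The log2 fold change was 0.38 in inflamed against control islets (95% interval -0.22 to 0.98, adjusted p = 0.285) and 0.29 in particle against control islets (95% interval -0.31 to 0.88, adjusted p = 0.494).

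Map3k14 encodes NIK, the kinase that starts the non-canonical pathway (ENSMUSG00000020941, chromosome 11 from 103110588 to 103158298, GRCm39, minus strand). It had 23.9, 15.2 and 16.5 CPM in particle, 41.9, 33.2 and 16.0 CPM in inflamed and 16.3, 16.5 and 16.8 CPM in control libraries. Inflamed replicates 1 and 2 were above all other libraries, and inflamed replicate 3, the deepest library, lay just below the controls. Map3k14 rose 1.83-fold in inflamed against control islets (log2 fold change 0.87, SE 0.32, adjusted p = 0.0474), a call just under the threshold that only 7 of 20 alternatives kept. Without inflamed replicate 1 its log2 fold change was 0.56 (adjusted p = 0.205), and without inflamed replicate 2 the adjusted p was 0.108. Leaving out control replicates 1, 2 or 3 gave an adjusted p of 0.129, 0.122 or 0.128, and leaving out particle replicates 2 or 3 gave 0.0539 or 0.0561. With a replicate block the adjusted p was 0.0647, and over all alternatives it ranged from 0.00721 to 0.205. The log2 fold change in particle against control islets was 0.16 (95% interval -0.53 to 0.86, adjusted p = 0.755).

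Tnfaip2 shares its name with A20 because TNF induces both, but its product, also called M-Sec, is known for membrane nanotubes and is no ubiquitin enzyme (ENSMUSG00000021281, chromosome 12 from 111408903 to 111421452, GRCm39, plus strand). It had 47.2, 15.4 and 68.6 CPM in particle, 144, 118 and 129 CPM in inflamed and 5.41, 8.05 and 4.20 CPM in control libraries. The 3 groups did not overlap, the inflamed libraries were close to each other, and particle replicate 2 was nearest to the controls. Tnfaip2 rose 22.2-fold in inflamed islets (log2 fold change 4.47, SE 0.49, adjusted p = 1.11e-04) and 7.44-fold in particle islets (log2 fold change 2.90, SE 0.46, adjusted p = 0.00208), both against control.

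**Figure D3:**
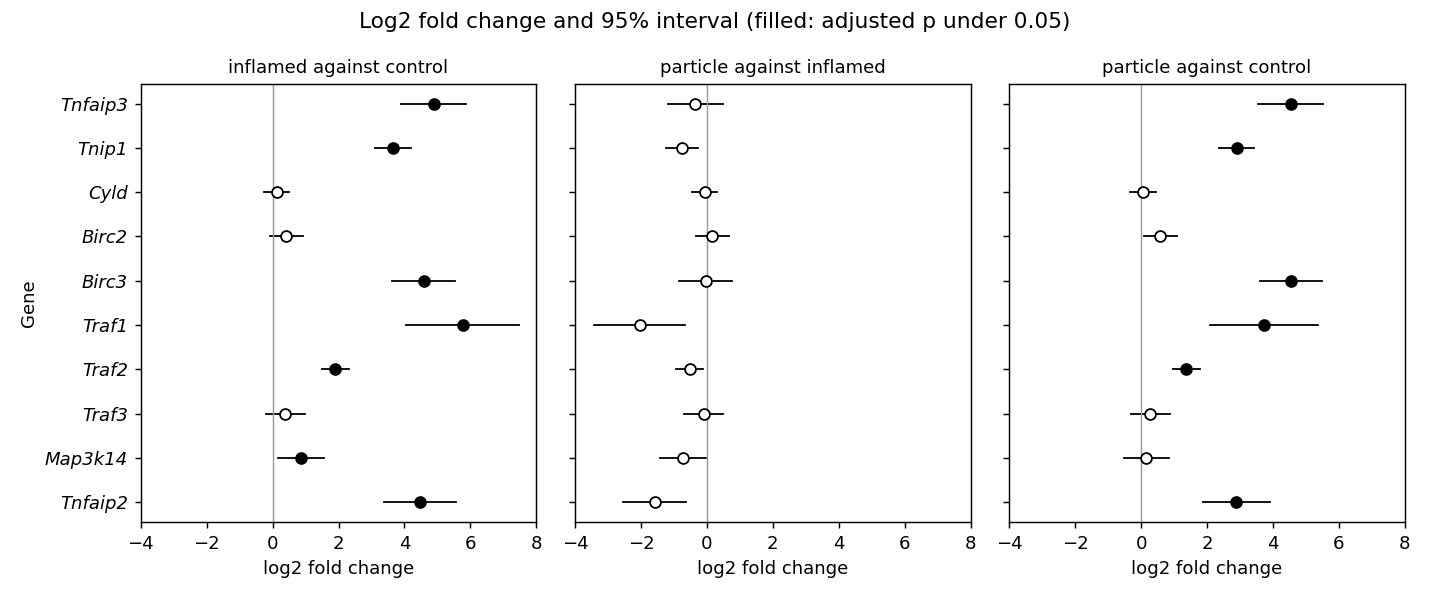
Log2 fold change of each gene (points) with its 95% interval (lines) in edgeR, for the 3 comparisons between particle, inflamed and control islets, with filled points at an adjusted p under 0.05. The points of particle against inflamed islets are all open, and the intervals of Traf1, Tnfaip2, Tnip1, Traf2 and Map3k14 lie below 0 there.

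The study asks whether the particles protect islets under cytokines, which sets particle against inflamed islets. No regulator was called by edgeR (0 higher and 0 lower, against 0% and 0% of all tested genes), and the smallest adjusted p of any gene was 0.0638. At an unadjusted p under 0.05 there were 5 of the 10, all lower in particle islets (Traf1, Tnfaip2, Tnip1, Traf2 and Map3k14), against 2603 of all tested genes (5.49% lower and 9.58% higher). DESeq2 called 3 of the 10 lower (Traf1, Tnfaip2 and Tnip1), against 296 lower and 487 higher among all 17276 tested genes. Its total was 783, and limma-voom and limma on FPKM called 0 of the 10. For Traf1, Tnfaip2, Tnip1 and Traf2 every particle library was below every inflamed library. Those were 4 of 10 regulators, and of all tested genes 6.82% lay lower and 8.87% higher without overlap. The median log2 fold change of the 10 was -0.43, and that of all tested genes was 0.04. This comparison shares the inflamed libraries with that of inflamed against control islets.

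Tnfaip2 libraries of particle islets stood at 36.2, 11.8 and 52.6% of the inflamed mean, a log2 fold change of -1.58 (95% interval -2.53 to -0.62, adjusted p = 0.158, and 0.0112 in DESeq2). The log2 fold change of Traf1 was -2.04 (95% interval -3.41 to -0.67, adjusted p = 0.18, and 0.0336 in DESeq2). Without particle replicate 3 both were called lower, Tnfaip2 at a log2 fold change of -2.06 (adjusted p = 0.0352) and Traf1 at -2.89 (adjusted p = 0.036). Without particle replicate 2 the log2 fold change was -1.17 for Tnfaip2 (adjusted p = 0.306), and without inflamed replicate 3 it was -1.40 for Traf1 (adjusted p = 0.378). Over all 20 alternatives the adjusted p ranged from 0.0112 to 0.312 for Tnfaip2 and from 0.0336 to 0.417 for Traf1. Traf2 stood at 59.0 to 76.0% of the inflamed mean (log2 fold change -0.52, 95% interval -0.92 to -0.12, adjusted p = 0.219). Map3k14 stood at 50.2 to 78.6% (log2 fold change -0.71, adjusted p = 0.321), with its particle libraries inside the range of the inflamed ones or just below it. Birc2, Birc3, Traf3 and Cyld overlapped between the groups, and Tnfaip3 and Birc3 were at 90.7% or more of the inflamed mean in particle replicates 1 and 3 and at 36.5 and 44.8% in particle replicate 2.

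Macrophage markers moved in the same libraries. All 12 tested markers were lower in particle than in inflamed islets at an unadjusted p under 0.05, against 5.49% of all tested genes. Of the 12, edgeR called 0 and DESeq2 called 9 lower, where DESeq2 called 296 of all genes lower. With limma-voom 3 were called lower, where it called 14 of all tested genes lower. With limma on log2(FPKM + 1) and log2(FPKM + 0.1) 2 and 1 were called lower, where 15 and 9 of all tested genes were. The median log2 fold change of the 12 was -1.46, and the marker sum of 355 to 542 CPM in particle libraries overlapped the 323 to 403 CPM of control libraries. Single markers differed from that sum, with Cd68 at 110.5 ± 47.05 CPM in particle, 219 ± 38.7 CPM in inflamed and 15.85 ± 3.80 CPM in control islets, and C1qa at 54.8 ± 10.6, 122 ± 51.8 and 156 ± 30.8 CPM in the same order. Other marker lists moved too in particle against inflamed islets. Their median log2 fold change was -3.34 for neural markers, -1.59 for lymphocytes and neutrophils and -0.33 for duct cells. It was 1.58 for beta, 1.885 for alpha and 0.81 for delta, PP and epsilon cells. For acinar, stellate and endothelial cells it was 1.85, 0.22 and 1.34. The part of macrophages or other cells in the levels of the 10 regulators was not tested.

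**Figure D4:**
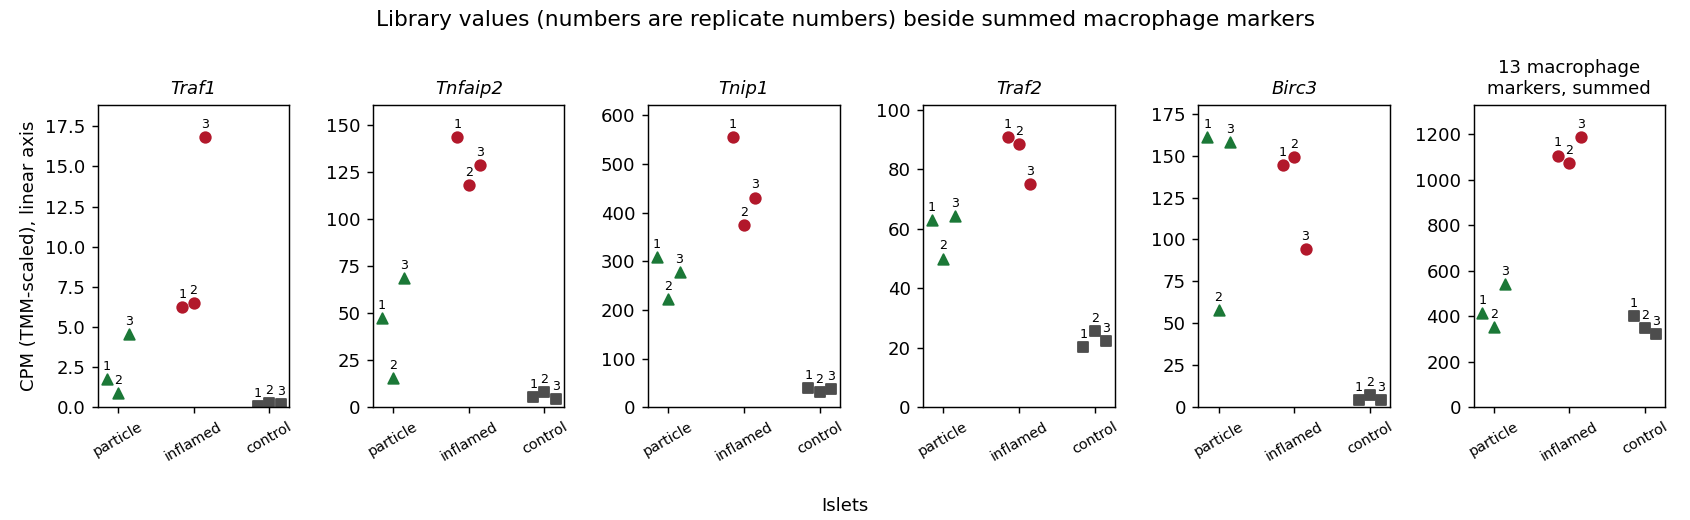
CPM (TMM-scaled, linear axes from 0) of Traf1, Tnfaip2, Tnip1, Traf2 and Birc3 and the summed CPM of 13 macrophage markers in each particle, inflamed and control library, with the replicate number beside each point. The particle libraries lie below the inflamed libraries in every panel except that of Birc3, where particle replicates 1 and 3 are the highest libraries.

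Per length of gene, the order of the 10 genes changed with the treatment. Levels per length are given as FPKM, the deposited value scaled by gene length and library. Tnip1 led with 73.6 ± 12.9 FPKM in particle, 125 ± 23.8 FPKM in inflamed and 10.3 ± 1.21 FPKM in control islets (SD, n = 3), and in controls it overlapped Traf3 at 9.94 ± 1.97 FPKM. In control islets Birc2 (6.84 ± 0.993 FPKM), Traf2 (4.51 ± 0.59), Cyld (3.09 ± 0.356) and Map3k14 (2.55 ± 0.0633) followed without overlap between neighbours. Tnfaip2 (1.195 ± 0.416 FPKM) and Birc3 (1.09 ± 0.384) overlapped, and Tnfaip3 (0.359 ± 0.156) and Traf1 (0.0206 ± 0.0114) were lowest. In inflamed islets Tnfaip2 (25.5 ± 2.19 FPKM) and Birc3 (25.1 ± 5.79) overlapped at ranks 2 and 3, above Traf2 at 16.2 ± 1.503 FPKM. Traf2, Traf3, Tnfaip3 (10.2 ± 1.71 FPKM) and Birc2 then overlapped in turn, and Traf1 stayed last at 1.09 ± 0.679 FPKM. In particle islets Birc3 was second with 24.3 ± 11.5 FPKM, and it overlapped Traf3 below it. Tnfaip2 was sixth with 8.48 ± 5.15 FPKM, and Traf1 was last with 0.262 ± 0.206 FPKM.

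Within the 10, Tnfaip3 and Birc3 were the most alike across the 9 libraries, with a root mean square difference of 0.21 between their centred log2 CPM. Of 10230 other protein-coding genes, those nearest to Tnfaip3 were Ccrl2 (0.25), an atypical chemokine receptor, Mx2 (0.28) and Oas2 (0.32), both antiviral proteins, Clec4n (0.35), a C-type lectin, and Clic5 (0.35). Those nearest to Birc3 were Clic5 (0.19), Tnfrsf11b (0.26), the decoy receptor osteoprotegerin, Mx1 (0.29), Parp14 (0.29) and Mx2 (0.30). Traf1 had no neighbour as close among these genes, which averaged 5 CPM or more. Its own means were 2.40 CPM in particle, 9.84 CPM in inflamed and 0.179 CPM in control islets. The part of its low counts in these distances was not tested. Its nearest were Clec4d (0.52), Tgif1 (0.55), Slc7a11 (0.57), the cystine transporter, Cyp1b1 (0.58) and Hk2 (0.62), and its nearest regulator was Tnfaip2 (0.58).

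The surrounding pathway was described by 6 lists with 63 genes, 60 of them tested. In inflamed against control islets 34 of the 60 were higher and 1 was lower, against 20.7% and 19.0% of all tested genes, with a median log2 fold change of 0.89 against 0.05 over all tested genes. Among 5 genes of LUBAC, the ligase of linear ubiquitin chains, and its regulators, 4 rose and 0 fell (median 0.55). Rnf31, the catalytic subunit HOIP, reached 187 ± 41.8 CPM in inflamed and 56.6 ± 7.57 CPM in control islets (adjusted p = 2.60e-04). Otulin, which cuts linear chains, was at 63.0 ± 8.74 against 35.4 ± 7.24 CPM (adjusted p = 0.00832), and Sharpin, a LUBAC subunit, at 86.4 ± 7.51 against 60.5 ± 5.65 CPM (adjusted p = 0.0301).

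Of 9 partners and relatives of A20, 6 rose and 0 fell (median 0.69). For this list and the next the shares of all tested genes were 20.7% higher and 19.0% lower. Optn, the ubiquitin-binding optineurin, was at 119 ± 11.8 CPM in inflamed and 18.4 ± 3.71 CPM in control islets (adjusted p = 7.22e-05). Tnip3, which encodes ABIN3, was at 10.2 ± 6.25 against 0.227 ± 0.213 CPM (adjusted p = 4.73e-04), and Zfand5, which has an A20-type zinc finger, at 165.7 ± 16.0 against 50.35 ± 5.81 CPM (adjusted p = 8.12e-04). Like Traf1, Tnip3 passed the filter on low counts through the cytokine-treated libraries, where it was high. Of 11 tested genes of other TRAFs and TRAF-binding proteins, 6 rose and 0 fell (median 0.93). They included Tifa, which activates TRAF6, at 77.2 ± 13.2 CPM in inflamed against 6.56 ± 1.60 CPM in control islets (adjusted p = 2.89e-04), Trafd1, a feedback inhibitor, at 293.7 ± 39.9 against 87.4 ± 0.572 CPM (adjusted p = 7.52e-04), and Azi2, an adaptor of the kinase TBK1, at 121 ± 0.968 against 46.25 ± 2.80 CPM (adjusted p = 0.00107).

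Of 9 other IAP and IAP-binding genes 3 rose and 0 fell (median 1.05). For this and the next 2 lists the shares of all tested genes were 20.7% higher and 19.0% lower. The 3 were Xaf1, which binds XIAP, at 219 ± 28.0 CPM in inflamed and 1.80 ± 0.673 CPM in control islets (adjusted p = 7.60e-07), Htra2, a mitochondrial protease that counters IAPs, at 35.2 ± 3.90 against 16.9 ± 2.05 CPM (adjusted p = 0.00226), and Birc5, the mitotic protein survivin, at 3.22 ± 1.68 against 0.763 ± 0.116 CPM (adjusted p = 0.0142). Of 16 genes of the TNF receptor complex and its kinases 8 rose and 1 fell (median 0.94). Tnfrsf1b, TNF receptor 2, was at 44.4 ± 5.58 CPM in inflamed and 4.31 ± 1.09 CPM in control islets (adjusted p = 1.23e-05), Tnfrsf1a, TNF receptor 1, at 299.9 ± 34.4 against 91.3 ± 8.10 CPM (adjusted p = 1.33e-04), and the kinase Ripk1 at 51.3 ± 6.34 against 14.2 ± 0.956 CPM (adjusted p = 2.15e-04). Tab1, a partner of the kinase TAK1, was the gene that fell, with 22.9 ± 4.83 CPM in inflamed and 41.05 ± 3.88 CPM in control islets (adjusted p = 0.0189). Of 10 tested genes of non-canonical NF-kB receptors, ligands and subunits 7 rose and 0 fell (median 3.17). They included Cd40, a receptor that draws TRAF2 and TRAF3, at 269.8 ± 40.9 CPM in inflamed and 1.20 ± 0.0501 CPM in control islets (adjusted p = 1.23e-06), Nfkb2, the precursor that NIK signalling has cut, at 179 ± 38.6 against 16.1 ± 0.794 CPM (adjusted p = 3.48e-06), and Relb, its partner, at 82.0 ± 28.1 against 8.12 ± 1.22 CPM (adjusted p = 2.09e-05).

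In particle against control islets 24 of the 60 pathway genes were higher and 0 were lower, against 11.4% and 5.92% of all tested genes (median log2 fold change 0.645 against 0.05 over all tested genes), or 15 higher without control replicate 3. In particle against inflamed islets edgeR called 0 of the 60. At an unadjusted p under 0.05, 10 of the 60 were lower and 0 higher (5.49% and 9.58% of all tested genes). DESeq2 called 1 of the 60 lower, where it called 296 of all tested genes lower, while limma-voom and limma on FPKM called 0 of the 60. Their median log2 fold change was -0.20, against 0.04 over all tested genes. Nfkb2 had the smallest adjusted p among them (0.135), with 99.7 ± 19.2 CPM in particle and 179 ± 38.6 CPM in inflamed islets. Rnf31 was at 117 ± 13.8 CPM in particle and 187 ± 41.8 CPM in inflamed islets (adjusted p = 0.191), Cd40 at 139 ± 61.05 against 269.8 ± 40.9 CPM (adjusted p = 0.197) and Tnfrsf1b at 27.1 ± 6.64 against 44.4 ± 5.58 CPM (adjusted p = 0.214). Tnfrsf11a was at 6.44 ± 0.869 against 10.8 ± 2.71 CPM (adjusted p = 0.232) and Traf3ip2, an adaptor of the interleukin-17 receptor, at 20.15 ± 3.79 against 30.1 ± 3.99 CPM (adjusted p = 0.245). Ikbkg went the other way, at 141.5 ± 56.6 CPM in particle and 94.0 ± 15.3 CPM in inflamed islets (adjusted p = 0.348). Of the 60 genes 45 had a negative log2 fold change in this comparison.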

How the data were processed

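RNA of 9 islet libraries was measured by sequencing. Per gene, the deposited counts are whole numbers of reads without normalization, and the deposited FPKM table holds fragments per kilobase of gene length, scaled by library by the authors. HTSeq, DESeq2 and GRCm39 were used, per the submitters' processing notes, with no versions given. The aligner and the use of strand are not given in the sources used here. Groups and replicate numbers are those of the sample titles. The untreated columns carry no group word and were matched as the set left once the other columns had been matched by name. Replicates of a group differed beyond sampling noise (chi-square per degree of freedom 39.4 to 186), and p-values measure the spread between these libraries, which may be partly technical.

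The test on these counts was that of edgeR 4.0.16, run in R 4.3.3 (filterByExpr with a smallest count of 10, TMM factors, robust quasi-likelihood fit of all 9 libraries), with p-values adjusted by the Benjamini-Hochberg method over 17276 genes and called under 0.05. CPM uses TMM-scaled totals. DESeq2 1.42.0 and limma 3.58.1 served as alternatives, beside other filters, scalings, a replicate block and leaving out each library. Genes whose spans overlap a regulator held at most 0.445% of its counts.

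The regulators, the pathway lists and the marker lists were chosen with earlier results of these data known. All 10 regulators are named, with up to 3 genes per pathway list by smallest adjusted p. Genes with a like pattern are the 5 nearest among protein-coding ones that averaged 5 CPM or more. Tab1 was named after its value was seen, as the 1 gene that fell.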

Additional observations from a re-analysis of the deposited data

How the results depend on the processing

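Over the fold changes of the 10 regulators under 20 alternatives in 3 comparisons, 577 kept the side of the threshold, 16 lost the call and 7 gained it, and none of the called ones changed sign. Tnfaip3, Tnip1, Tnfaip2, Birc3 and Traf2 were called in both comparisons with control under all 20. The number of regulators called was 6 to 7 for inflamed and 6 to 7 for particle islets against control when any library was left out, and 0 to 2 for particle against inflamed islets, where DESeq2 called 3. Over all genes these omissions gave 4679 to 7314, 1115 to 4545 and 0 to 942 calls in the same order, the 942 without particle replicate 3. In particle against control islets the extremes came without control replicate 3 (1115) and without particle replicate 2 (4545), and leaving out particle replicates 1 or 3 or control replicates 1 or 2 gave 1482, 1465, 1667 and 1351 calls against 2983 with all libraries. For particle against inflamed islets other settings called 221 genes (no count filter), 783 (DESeq2), 16 and 14 (limma on log2(FPKM + 1) and log2(FPKM + 0.1)), 15 (limma-voom) and 1 (library totals). Of the 60 pathway genes, leaving out a library gave 27 to 36 calls for inflamed and 15 to 30 for particle islets against control and 0 to 1 for particle against inflamed islets, where DESeq2 called 1. Library totals moved the median of all genes to 0.22, 0.32 and 0.13 for inflamed against control, particle against control and particle against inflamed islets, and the genes called higher and lower to 4240 and 2605 for the first (3568 and 3274 with TMM) and 3193 and 597 for the second (1961 and 1022 with TMM). In particle against control islets the split was 2345 and 1940 with DESeq2, 1641 and 1500 with limma-voom, and 1505 and 2017 or 1658 and 1635 with limma on log2(FPKM + 1) or log2(FPKM + 0.1). The log2 differences of the Birc3 to Birc2 and Traf1 to Traf2 ratios kept their sign when any library was left out. Being the same in FPKM is no check on them, because gene length and library scaling cancel in these differences. The cause of these shifts was not tested.

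Replicate numbers were not shown to pair the libraries, since deviations of same-numbered libraries correlated at -0.18 to 0.21 against -0.25 to 0.245 for other pairs. With the replicate block 6, 0 and 6 regulators were called for inflamed over control, particle over inflamed and particle over control islets, with Map3k14 lost. Depth limits Traf1 in control islets, and fold changes on the log2(FPKM + 1) scale understate low genes, as for Traf1 at 0.99 in inflamed against control islets.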
